A study of Arabidopsis thaliana with 96 samples.

Results

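Flowering in Arabidopsis thaliana is timed in the leaf by a small set of transcription factors and a mobile signal, and 10 genes of that set were followed here across 12 light by nitrate groups. They were the rows of the deposited count table for FT (AT1G65480), SOC1 (AT2G45660), FLC (AT5G10140), SVP (AT2G22540), TOE1 (AT2G28550) and 5 SQUAMOSA PROMOTER BINDING PROTEIN-LIKE genes, namely SPL3 (AT2G33810), SPL4 (AT1G53160), SPL5 (AT3G15270), SPL9 (AT2G42200) and SPL15 (AT3G57920), 10 of the 32833 loci in the table. All plants were wild-type Col-0, sown after 72 h of cold at 4 °C, raised on sucrose-containing medium for 10 days and then potted in clay. From transfer they were watered with half-strength Hoagland solution holding 2, 5, 10 or 20 mM nitrate, under low (100), mid (250) or high (500) µmol m-2 s-1 of light, in 8 h days and 16 h nights at 23 and 21 °C. On the 30th day after transfer 2 leaf punches were taken from each plant, and each library is the polyadenylated RNA of 1 plant, with 8 plants in each of the 12 groups, 32 at each light level and 24 at each nitrate dose. The time of day of sampling is not given in the sources used here, and the apex, where several of these genes also act, was not sampled.

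FT is made in the phloem companion cells of leaves, mainly in long days, and its protein moves to the apex as the flowering signal. SOC1 is a MADS-box activator of flowering that integrates FT and other inputs. FLC and SVP are MADS-box proteins that bind and repress FT and SOC1, FLC being silenced by prolonged cold, and Col-0 carries a nonfunctional FRIGIDA allele and so has little FLC. In the age pathway microRNA miR156 keeps SPL transcripts low in juvenile plants and declines as the plant ages, SPL proteins then raise SOC1 and the genes of miR172, and miR172 in turn represses TOE1, an AP2-type repressor of FT. Short days keep the photoperiod branch largely off and leave the age and gibberellin branches as the main route to flowering.

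The 96 libraries held 9461056 to 18125373 counted reads (median 12489936). Of the 32833 loci, 28025 had any read and 19498 passed the filter on low counts and were tested. Levels are given as CPM, the reads of a gene scaled to a common library total with TMM factors, so they follow the same scaling as the tests. The library codes in the labels run in 4 sets of 24, each with 2 libraries of every group. They are called code sets here, since no label says what they are, and 71.3% of all tested genes differed between them. The main results of the members are therefore also given within them, and those of the related gene lists are not. Markers of the leaf were present in every library (summed CPM of 4 mesophyll genes from 5048 to 47960), and root hair markers were at or near 0 (at most 1.12). Of 4 shoot meristem genes WUS and CLV3 were at 0. STM had 4 reads in 3 libraries, and KNAT1 had 129 reads in 51 libraries (at most 0.666 CPM). All 4 mesophyll markers fell in high light and rose at 20 mM nitrate (median log2 change -1.01 and 1.43), and in leaf punches fewer cells of a type and less RNA per cell cannot be told apart. The part of this in the results below was not tested. One plant stood apart. The summed CPM of 6 floral organ genes was 82.9 in high light at 2 mM, replicate 2, of which 81.6 was SEP1, against at most 2.14 in the other 95 libraries. Results of the members that rest on this plant are also given without it, and those of the related gene lists are not.

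Of the 10 genes, 6 hold a site for 1 of the microRNAs of the age pathway, and these sites are shown because they mark the members that are targets in the age pathway described above. The mature microRNAs are given 5′ to 3′ with the seed (bases 2 to 8) in capitals, from RefSeq annotation of TAIR10.1.
miR156a-5p: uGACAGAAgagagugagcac
miR172a: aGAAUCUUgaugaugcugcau
The sites are given on the coding strand, and capitals mark the bases that differ from the perfect complement of miR156a-5p or, for TOE1, of miR172a.
miR156a-5p perfect complement: gtgctcactctcttctgtca
SPL9: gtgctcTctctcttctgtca
SPL15: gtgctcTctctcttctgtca
SPL3: TtgctTactctcttctgtca
SPL4: CtgctcTctctcttctgtca
SPL5: CCgctcTctctcttctgtca
miR172a perfect complement: atgcagcatcatcaagattct
TOE1: CAgcagcatcatcaGgattct

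Counted from the 5′ end of the site, with the base of the perfect complement first, SPL9 and SPL15 differed at A7T only, SPL3 at G1T and C6T, SPL4 at G1C and A7T, and SPL5 at G1C, T2C and A7T. TOE1 differed from the complement of miR172a at A1C, T2A and A15G. The sites of SPL9 (chr2:17589066-17589085, plus strand) and SPL15 (chr3:21444834-21444853, minus strand) lie in coding sequence. That of TOE1 (chr2:12226233-12226253, minus strand) is in coding sequence in 3 of its 6 annotated transcripts and in the 3′ untranslated region in the other 3. Those of SPL3 (chr2:14305878-14305897, plus strand), SPL4 (chr1:19807090-19807109, plus strand) and SPL5 (chr3:5140598-5140617, minus strand) lie in the 3′ untranslated region. For SPL4 this holds for 1 of 3 annotated transcripts, and the closest match in the other 2 has 8 mismatches. The counts are per gene and do not separate these transcripts. All coordinates are on TAIR10.1, whose nuclear sequence is that of TAIR10, the build named by the submitters. Of 31342 annotated genes, 13 (0.0415%) held a match to the complement of miR156a-5p with at most 3 mismatches, and 6 (0.0191%) one for miR172a. The same 20 bases of SPL4 and SPL9 are annotated on the opposite strand as MIR156I and MIR156J. A match is a description of sequence and does not show cleavage in these leaves.

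Per kilobase of exon, SVP (86.5 CPM per kb), TOE1 (72.5) and SOC1 (63.7) were the most abundant of the 10 transcripts. SPL3 followed at 20.4 CPM per kb, then SPL4 (4.94), SPL9 (4.00) and SPL5 (3.82). SPL15 stood at 0.368 CPM per kb, FLC at 0.143 and FT at 0.0529, as means over the 96 libraries. All 10 had reads somewhere, but to unequal depth. SOC1, SVP, TOE1, SPL3, SPL4 and SPL9 had at least 10 reads in all 96 libraries and SPL5 in 95. SPL15 had 636 reads in all, reached 92 libraries and had 10 or more reads in 27 of them. FLC had 197 reads in 32 libraries, 5 of them with 10 or more, and FT had 82 reads in 17 libraries, 3 of them with 10 or more. FT and FLC therefore did not pass the filter, and 8 members enter the fits across all genes. The strand setting of the counting is not given in the sources used here, and several members share exon bases with a gene on the other strand, namely FLC (68.1% of its exon bases, with a long noncoding RNA), SPL3 (97.3%, with a long noncoding RNA), SPL4 (14.4%, with the MIR156I locus), SPL5 (25.5%), SPL9 (3.82%, with the MIR156J locus) and SPL15 (100%, with the coding gene AT3G57910). MIR156I had 136 reads against the 9047 of SPL4, with 27, 48 and 61 in low, mid and high light, and r with SPL4 over the 96 libraries was 0.68, a description of values that may share reads. AT3G57910 had 9490 reads against the 636 of SPL15, and the noncoding RNA opposite SPL3 had 1277 against 24865. The same r was 0.45 for SPL3, 0.25 for FLC, 0.05 for SPL9, -0.27 for SPL5 and -0.38 for SPL15. The library kit was stranded. If strand was not used in counting, the reads of such pairs cannot be told apart, and how far they share reads was not tested.

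**Figure D1:**
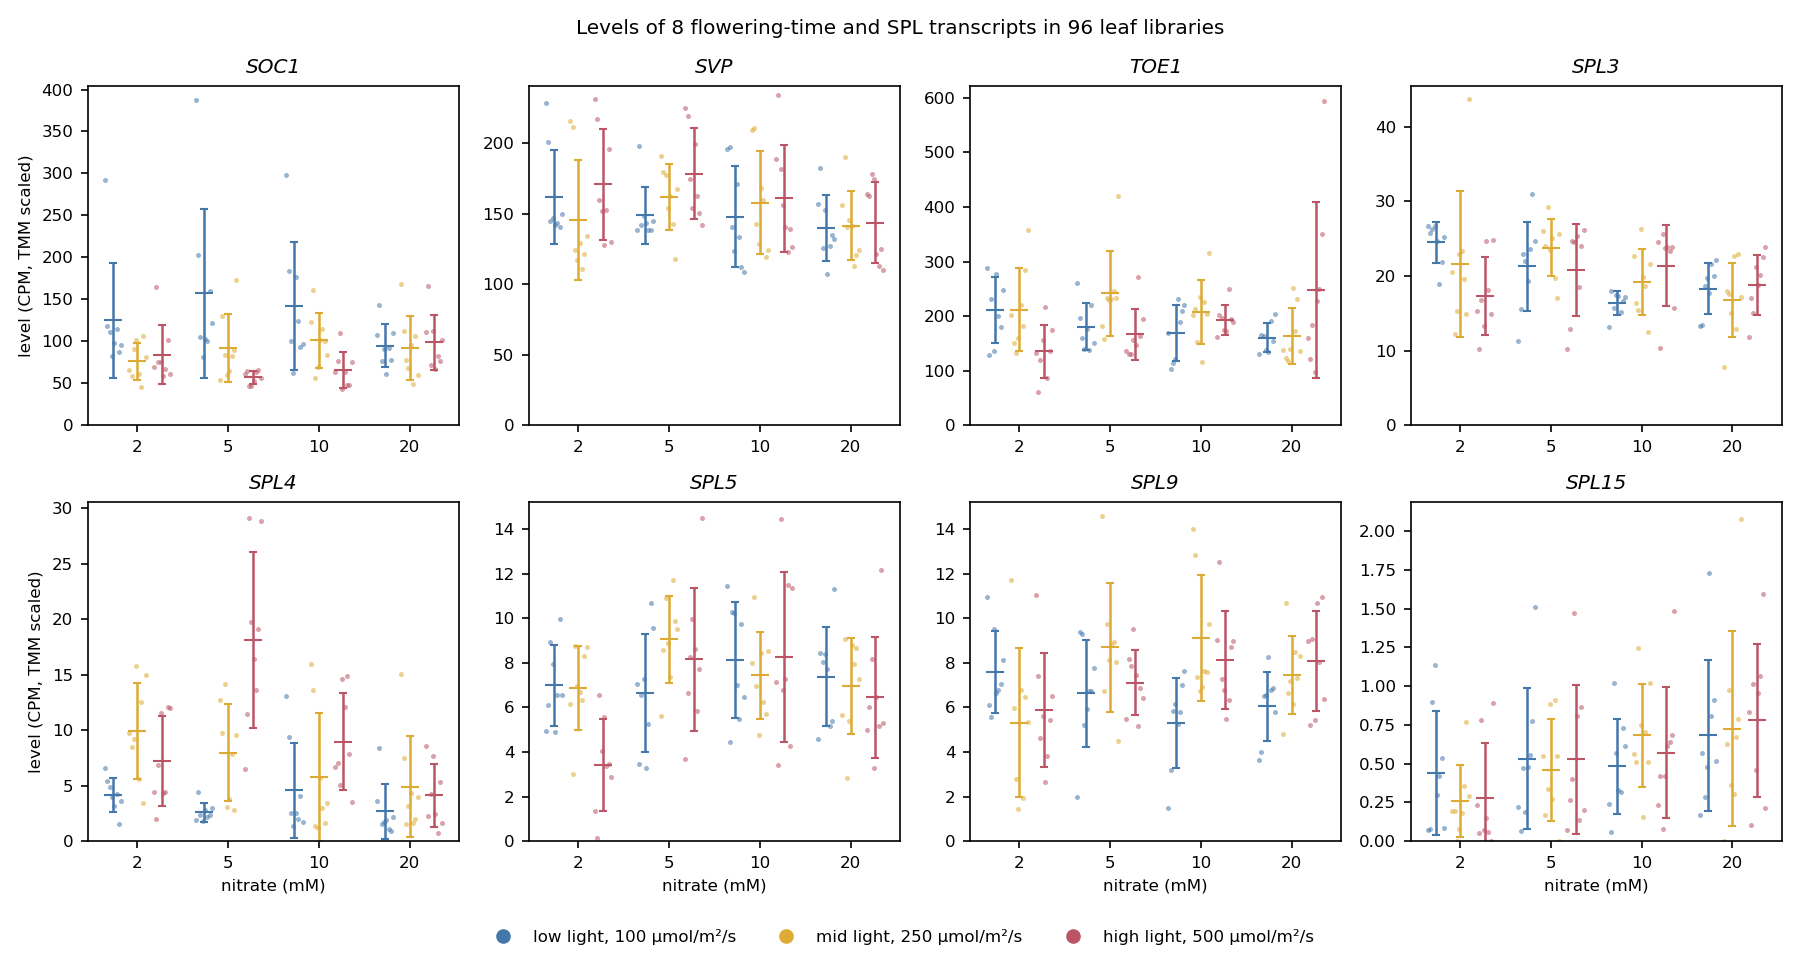
Level of the 8 tested members in each library (y axis, TMM-scaled CPM) by nitrate dose (x axis, mM) and light level (colour); points are libraries (8 per group), and bars are the mean and SD. SPL4 was highest in high light at 5 mM, SOC1 was highest in low light at 5 mM, and every pair of groups overlapped for SVP, SPL5, SPL9, SPL15 and TOE1.

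The members differed in how far the 12 groups spread. SPL4 had the widest range, its highest group mean (18.1 ± 7.93 CPM, high light at 5 mM; SD, n = 8) being 6.99 times its lowest (2.59 ± 0.849 CPM, low light at 5 mM). The same ratio of highest to lowest group mean was 3.02 for SPL15, 2.76 for SOC1, 2.65 for SPL5, 1.84 for TOE1, 1.72 for SPL9, 1.5 for SPL3 and 1.27 for SVP. When the 12 group means of a gene were put in order, only 1 of the 11 steps between neighbours exceeded the larger of the 2 SDs for SPL4 and 1 for SPL5, and none did for the other tested members. Of the 8 tested members the spread among plants of 1 group was widest for SPL15 (median coefficient of variation 80.1%) and SPL4 (55.9%), and was 37.1% for SOC1 and 20.4% for SVP.

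SPL4 rose and SOC1 fell in high light. Among SPL genes SPL4 is, with SPL3 and SPL5, one of the small promoters of the floral transition, and its transcript was 2.46 times as abundant in high as in low light, averaged over the 4 doses. SOC1 stood at 0.586 of its low-light level. Per library, SPL4 had a lowest, median and highest level of 0.910, 2.51 and 13.1 CPM in the 32 plants in low light, of 1.21, 5.63 and 16.0 CPM in mid light, and of 0.759, 7.34 and 29.1 CPM in high light. The median rose with each light level, and the ranges overlapped. In edgeR's quasi-likelihood fit the log2 change of SPL4 was 1.30 ± 0.24 (SE; 95% interval 0.82 to 1.77; adjusted p = 2.91e-06). SOC1 had 61.3, 103.7 and 387.0 CPM (lowest, median, highest) in low light, 45.1, 84 and 172.6 CPM in mid light and 43.4, 67 and 166.1 CPM in high light. Its log2 change between high and low light was -0.77 ± 0.13 (95% interval -1.04 to -0.50; edgeR adjusted p = 9.15e-07).

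These were 2 of the 8 tested members, and 62.5% of all tested genes were called between high and low light (33.8% higher and 28.7% lower). The median log2 change of the 8 was -0.01, against 0.04 over all tested genes. SVP (0.12 ± 0.07, adjusted p = 0.133), SPL9 (0.19 ± 0.13, adjusted p = 0.191), SPL5 (-0.23 ± 0.15, adjusted p = 0.177), SPL3 (-0.03 ± 0.10, adjusted p = 0.818), SPL15 (-0.04 ± 0.30, adjusted p = 0.911) and TOE1 (0.01 ± 0.11, adjusted p = 0.922) did not pass the threshold of 0.05 in the same edgeR fit. SVP passed with the replicate block or the code set block in the fit (0.12 in both, edgeR adjusted p = 0.0179 and 0.0165; 0.0165 to 0.881 over all alternatives), and SPL5 passed by limma-voom (-0.37, adjusted p = 0.0419; 0.0419 to 0.386 over all alternatives). For SPL15, with few reads, the 95% interval ran from -0.63 to 0.55.

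Of the 2 steps in light, the lower gave calls with and without a block in the fit. The upper gave none in the filtered edgeR fit of all libraries without a block, but calls under several alternatives. SPL4 was 2.03 times as abundant in mid as in low light (log2 change 1.02 ± 0.24, edgeR adjusted p = 0.00117) and SOC1 stood at 0.705 of its low-light level (-0.50 ± 0.13, adjusted p = 0.00435), the 2 members called where 19.8% of all genes were. Between high and mid light 38.7% of all genes and 0 members were called by edgeR (1, SOC1, at an unadjusted p under 0.05), with SPL4 at 0.28 ± 0.23 (edgeR adjusted p = 0.343) and SOC1 at -0.27 ± 0.13 (adjusted p = 0.102). Limma-voom called 1 member in that step and DESeq2 0, and the shares of all genes called by these tools are not given here. With the replicate block or the code set block SVP, SOC1 and SPL5 passed between high and mid light, and without set 1 SPL4 and SOC1 did. The shares of all genes called in these fits are not given here, so the calls are not read as particular to the members. SOC1 was also called without the plant with floral markers (-0.32, edgeR adjusted p = 0.0473). In mid against low light neither gene passed within any single code set, and without set 1 SOC1 did not pass (-0.26, adjusted p = 0.0595; 0.00142 to 0.843 over all alternatives).

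Between high and low light the 2 genes parted most at 5 mM nitrate. SPL4 had 6.53, 17.8 and 29.1 CPM (lowest, median, highest of 8 plants) in high light and 1.77, 2.34 and 4.41 CPM in low light, a fold change of 6.96 (log2 change 2.80 ± 0.50, edgeR adjusted p = 4.45e-06). SOC1 had 46.2, 58.9 and 66.1 CPM in high light and 80.8, 113.4 and 387.0 CPM in low light, a fold change of 0.363 (log2 change -1.46 ± 0.27, edgeR adjusted p = 1.07e-05). At this dose 44% of all genes were called, and 2 members. At 10 mM, where 23.6% were called, SOC1 was the member called, at 66 ± 21.8 CPM in high light and 142.1 ± 75.8 CPM in low light (SD, n = 8 each; log2 change -1.11 ± 0.27, edgeR adjusted p = 0.00164), with overlapping groups. SPL4 averaged 8.98 ± 4.35 CPM in high light and 4.58 ± 4.30 CPM in low light at 10 mM and did not pass (log2 change 0.96 ± 0.47, edgeR adjusted p = 0.123).

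At 2 mM, the lowest dose, 42.9% of all genes were called between high and low light (20.9% lower), and 3 members were, all lower in high light and none of them SPL4 or SOC1. SPL5, a short SPL protein like SPL4 with its microRNA site in the same region, had 0.149, 3.41 and 6.54 CPM (lowest, median, highest) in high light and 4.89, 6.56 and 9.97 CPM in low light, with a log2 change of -1.03 ± 0.30 (edgeR adjusted p = 0.00444). SPL3 had 10.2, 16.1 and 24.8 CPM in high light and 18.9, 25.5 and 26.6 CPM in low light (log2 change -0.51 ± 0.19, edgeR adjusted p = 0.0261). TOE1 had 61.7, 134.1 and 217.2 CPM in high light and 128.9, 215.9 and 288.9 CPM in low light (log2 change -0.64 ± 0.23, edgeR adjusted p = 0.0199). In each of the 3 the groups overlapped, and the plant with floral markers had the lowest SPL5 of all 96 libraries. Without that plant SPL5 still passed (-0.85, edgeR adjusted p = 0.011), but SPL3 (-0.42, adjusted p = 0.0748) and TOE1 (-0.53, adjusted p = 0.0609) did not, while SOC1, not called with all plants, did (-0.78, adjusted p = 0.0189). SPL3 was also lost without replicate 4 of high light (-0.46, adjusted p = 0.0551). Over all alternatives the adjusted p ranged from 0.000594 to 0.466 for SPL5, 0.00625 to 0.945 for SPL3 and 0.00422 to 0.362 for TOE1, and within single code sets SPL5 was at -2.88, -0.72, -0.36 and -1.42, none of which passed. At 20 mM, where 3.78% of all genes were called, 0 members were by edgeR, DESeq2 or limma-voom (1, TOE1, at an unadjusted p under 0.05), with SOC1 at 98.7 ± 32.3 CPM in high light and 95 ± 25.4 CPM in low light (SD, n = 8 each; log2 change 0.05 ± 0.27, adjusted p = 0.936).

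Within the code sets, numbered 1 to 4 in the order of their codes, SPL4 passed in 3 of the 4. In set 1 SPL4 averaged 6.12 CPM in high light and 6.59 CPM in low light (n = 8 each; log2 change -0.04, edgeR adjusted p = 0.951). In set 2 it averaged 12.4 CPM in high light and 2.5 CPM in low light (log2 change 2.16, adjusted p = 8.34e-05). It averaged 8.64 and 2.46 CPM in high and low light in set 3 (1.40, adjusted p = 0.00177), and 11.3 and 2.45 CPM in set 4 (1.83, adjusted p = 0.00393). The difference between sets was not tested. Without set 1 the log2 change was 1.89, and over all alternatives the edgeR, DESeq2 or limma-voom adjusted p ranged from 1.27e-11 to 0.951. SOC1 was lower in high light in all 4 sets, with log2 changes of -1.14, -0.37, -0.73 and -0.58 (sets 1 to 4) and edgeR adjusted p-values of 0.00692, 0.0802, 0.00102 and 0.0223, so set 2 alone did not pass, and over all alternatives the adjusted p ranged from 1.67e-08 to 0.0802. Its mean level in low light was 216.6 CPM in set 1 and 88.6 to 107.2 CPM in the others.

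**Figure D2:**
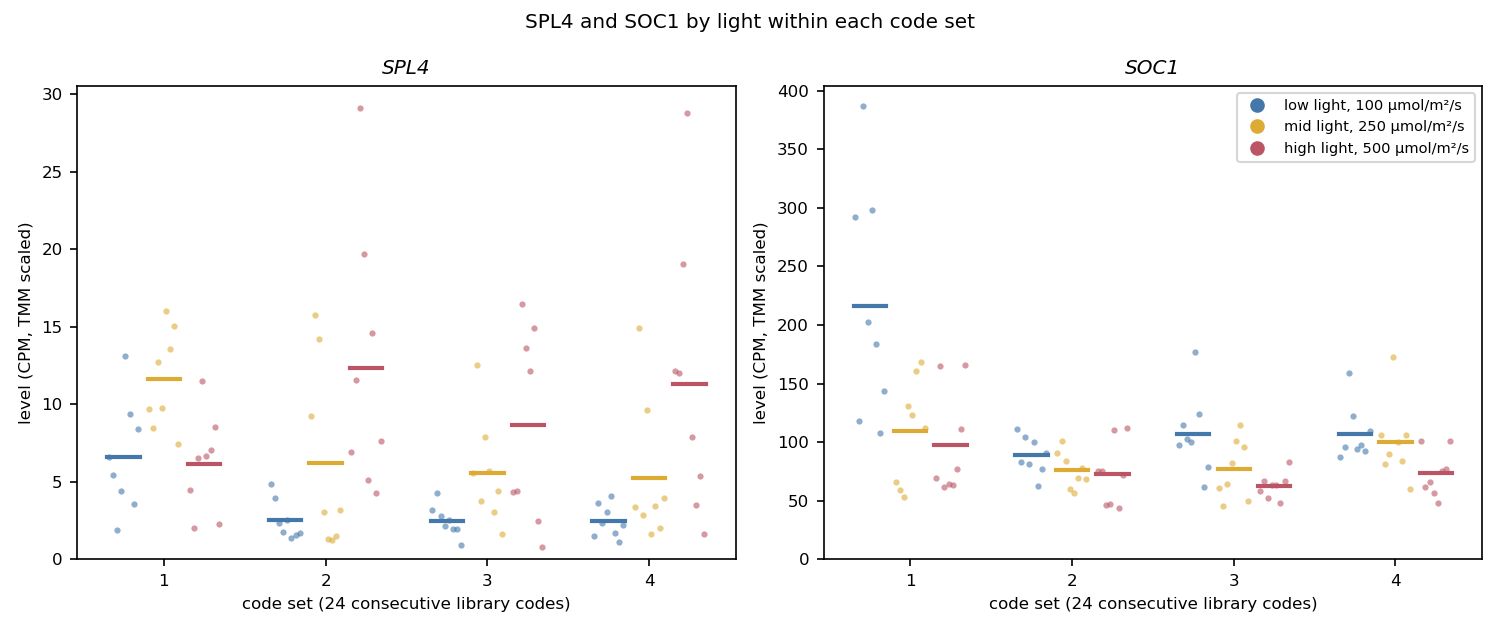
SPL4 and SOC1 (y axis, TMM-scaled CPM) in low, mid and high light within each of the 4 code sets; points are libraries (8 per light level and set) and lines are means. SPL4 averaged 6.12 CPM in high and 6.59 CPM in low light in set 1 and 8.64 to 12.4 CPM in high against 2.45 to 2.5 CPM in low light in the others.

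FT and FLC had too few reads for the fit across genes. Over all 96 libraries FT reads lay mainly in high light and FLC reads mainly in low light, but not in every code set. FT had 1 read in 1 of 32 low-light libraries, 13 reads in 7 of 32 mid-light libraries and 68 reads in 9 of 32 high-light libraries, or 0.0026, 0.0327 and 0.145 pooled CPM. The ratio of high to low light was 55.6, with a 95% counting interval of 9.64 to 2226, and that of mid to low light was 12.5 (1.87 to 530.3). These intervals cover counting error only. Both ratios divide by 1 low-light read, and with that count raised to a floor of 3 reads they were 18.5 and 4.16. A two-sided permutation test of mean CPM with 100000 draws, light labels being exchanged within nitrate doses, gave p = 0.00384 for high against low light, 0.0304 in the mid against low comparison and 0.114 between high and mid. The Benjamini-Hochberg adjusted values over the 6 such tests of FT and FLC were 0.0115, 0.0456 and 0.114. FT reads were concentrated in few plants, with 32 in high light at 2 mM replicate 2 (the plant with floral markers), 14 in high light at 10 mM replicate 2 and 10 in high light at 5 mM replicate 2. Those 3 plants are all of code set 1. Over code sets 1 to 4 high light had 61, 3, 0 and 4 FT reads and low light 0, 1, 0 and 0. Without the plant with floral markers high light had 36 reads and the permutation p was 0.00543, but without code set 1 high light had 7 reads and low light 1 (permutation p = 0.0665), and mid light had 7 (p = 0.477 against low light).

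FLC, the repressor that prolonged cold silences, had 162 reads in 12 of 32 low-light libraries, 24 reads in 12 mid-light libraries and 11 reads in 8 high-light libraries. The ratio of high to low light was 0.0555 (95% counting interval 0.0272 to 0.102), and that of mid to low light 0.142 (0.0885 to 0.219). The permutation p was 0.00304 for high against low light, 0.0219 between mid and low and 0.0549 between high and mid, adjusted to 0.0115, 0.0438 and 0.0659 over the same 6 tests. Most FLC reads lay in 5 low-light plants, with 60 in replicate 2 and 16 in replicate 1 at 2 mM, 22 in replicate 4 at 5 mM, 13 in replicate 4 at 10 mM and 26 in replicate 3 at 20 mM. Without the plant with 60 reads low light still had 102, and the permutation p was 0.00491. Without code set 1 high light had 8 reads and low light 79 (permutation p = 0.0246), and mid against low light no longer passed (p = 0.094). Over code sets 1 to 4 low light had 83, 67, 11 and 1 FLC reads, mid light 7, 2, 10 and 5, and high light 3, 1, 3 and 4. In set 4 low light thus had the fewest. The long noncoding RNA on the other strand of FLC had 40, 35 and 28 reads in low, mid and high light.

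**Figure D3:**
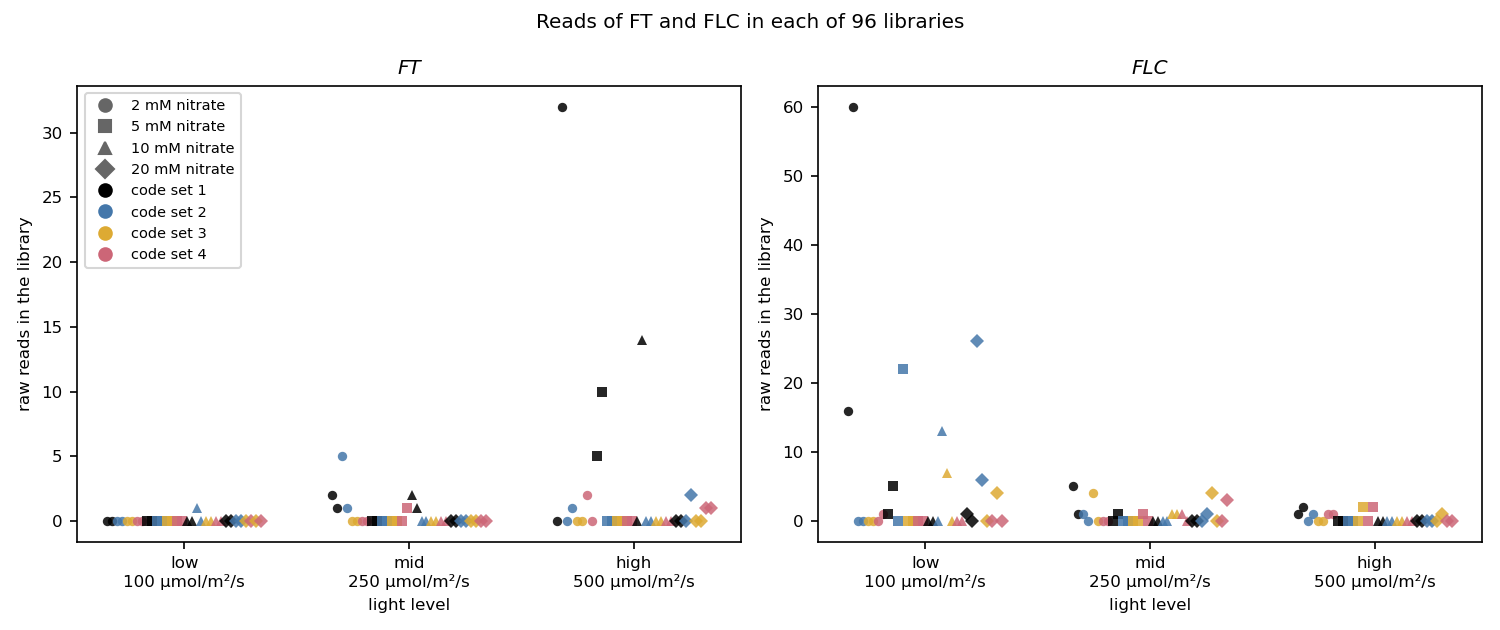
Reads of FT and FLC in each library (y axis, raw counts) by light level; marker shape gives the nitrate dose and colour the code set. The largest FT count was 32, in high light, and the largest FLC count 60, in low light, and most libraries held 0 reads of either.

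At 20 against 2 mM nitrate SPL15 rose and SPL4 fell. SPL15, which with SPL9 promotes the floral transition at the apex and slows leaf initiation, was 2.31 times as abundant at 20 as at 2 mM nitrate (log2 change 1.21 ± 0.36, 95% interval 0.49 to 1.93; edgeR adjusted p = 0.00281). The levels, as lowest, median and highest of 24 libraries, were 0, 0.195 and 1.13 CPM at 2 mM, 0, 0.435 and 1.51 CPM at 5 mM, 0.0570, 0.564 and 1.49 CPM at 10 mM, and 0, 0.650 and 2.08 CPM at 20 mM. The raw reads behind them were 99, 160, 178 and 199 from the lowest dose to the highest, so the groups overlap and each library rests on few reads. SPL4 had 1.51, 5.49 and 15.8 CPM at 2 mM and 0.759, 2.36 and 15.1 CPM at 20 mM. Its level at 20 mM was 0.562 of that at 2 mM (log2 change -0.83 ± 0.27, 95% interval -1.38 to -0.29; edgeR adjusted p = 0.0065).

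SPL4 and SPL15 were 2 of the 8 tested members, and 63.3% of all tested genes were called between 20 and 2 mM (28.7% higher and 34.6% lower). The median log2 change of the 8 was 0.04, against -0.06 over all genes. SPL5 (0.34 ± 0.17, adjusted p = 0.0772), SPL3 (-0.22 ± 0.11, adjusted p = 0.0752) and SVP (-0.17 ± 0.08, adjusted p = 0.0755) lay just outside the threshold, and SPL9 (0.20 ± 0.15, adjusted p = 0.232), TOE1 (0.03 ± 0.13, adjusted p = 0.829) and SOC1 (0.04 ± 0.15, adjusted p = 0.838) further from it in the same edgeR fit. SPL9 was at 0.54 without code set 1 (edgeR adjusted p = 0.000233) and passed within set 2 (0.69, adjusted p = 0.0143) and set 3 (0.82, adjusted p = 0.00894), with a range of 0.000233 to 0.849 over all alternatives. SPL3 passed in 4 of 48 fits that each left out 1 library, among them that without the plant with floral markers (-0.25, edgeR adjusted p = 0.0442). SVP and SPL5 passed with the replicate block (edgeR adjusted p = 0.00869 and 0.0351) or the code set block (0.0085 and 0.0343). Over all alternatives the adjusted p ranged from 0.0373 to 0.752 for SPL3, 0.0085 to 0.47 for SVP and 0.0197 to 0.447 for SPL5. With the code set as a block in the fit 5 members were called, and the share of all genes called in that fit is not given here. Within code sets, SPL15 was at 1.13, 1.97 and 1.24 within sets 2, 3 and 4 (edgeR adjusted p = 0.189, 0.00598 and 0.243) and 0.94 without set 3 (adjusted p = 0.0768), and over all alternatives its adjusted p ranged from 0.000787 to 0.243. SPL4 was at 0.37, -1.46, -1.49 and -1.32 within the 4 sets in order (edgeR adjusted p = 0.419, 0.00643, 0.00321 and 0.055), set 1 having the opposite sign. Without set 2, 3 or 4 it no longer passed (adjusted p = 0.0655, 0.0664 and 0.069), and over all alternatives the adjusted p ranged from 1.36e-06 to 0.419.

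Between neighbouring doses 1 call was made. SPL5 was the member called between 5 and 2 mM, where 7.54% of all genes were, with 7.96 ± 2.73 CPM at 5 mM, against 5.76 ± 2.5 CPM at 2 mM (SD, n = 24 each; log2 change 0.53 ± 0.17, edgeR adjusted p = 0.0427), and the call was lost in 24 of the 48 fits that each left out 1 of these libraries (log2 change 0.46 to 0.60). By edgeR, DESeq2 and limma-voom 0 members were called between 10 and 5 mM (14% of all genes) or between 20 and 10 mM (1.1% of all genes). At an unadjusted p under 0.05 there was 1 member in each of these steps, SPL3 in the lower and SPL4 in the upper (-0.72 ± 0.27, edgeR adjusted p = 0.154).

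**Figure D4:**
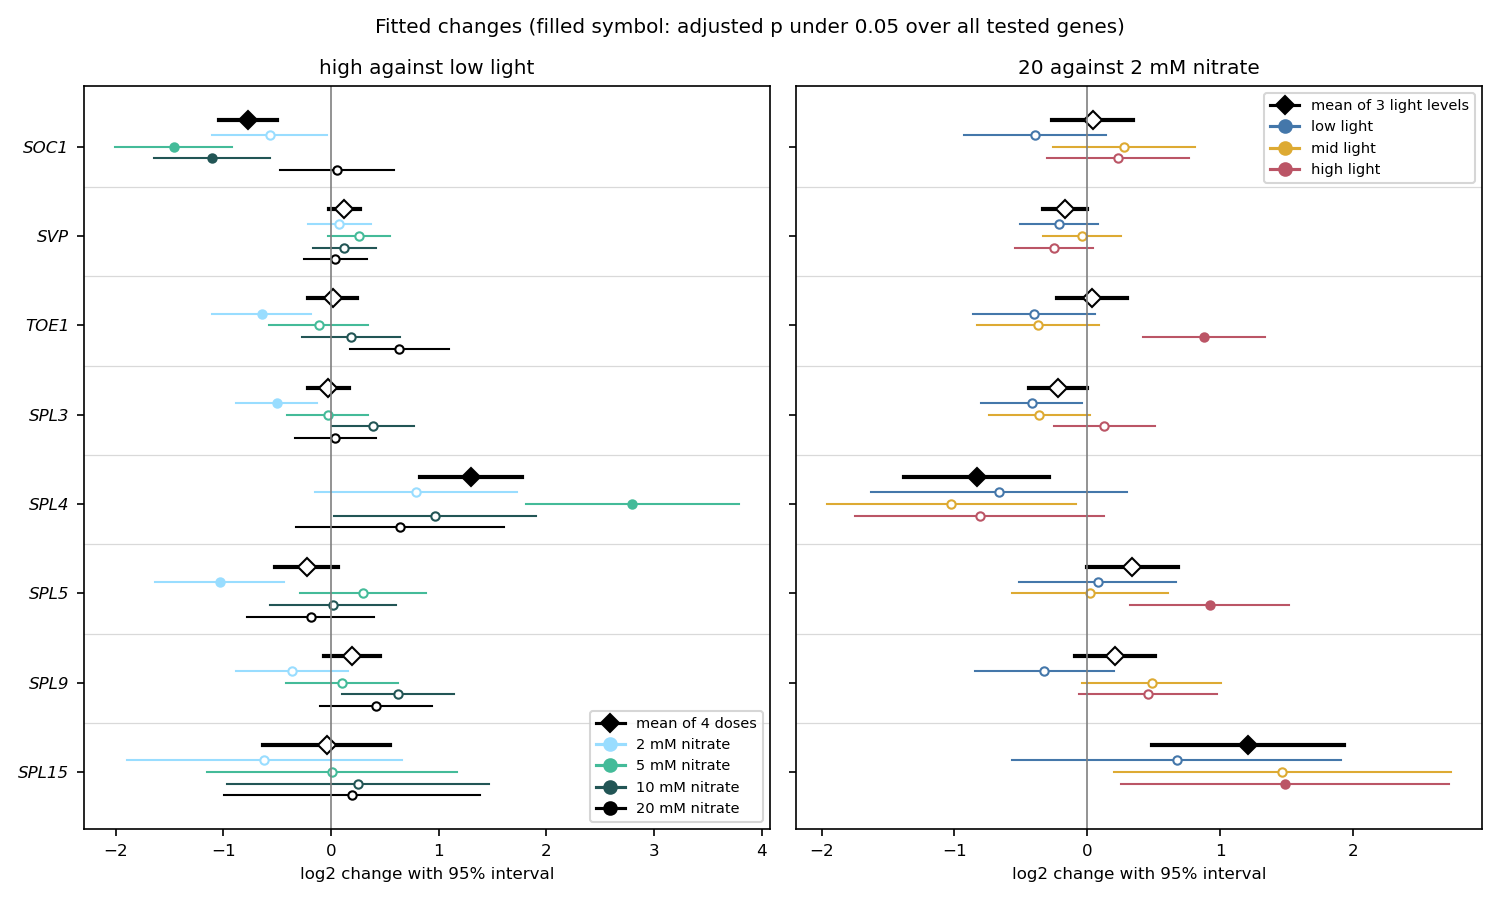
Fitted log2 change of the 8 tested members with its 95% interval, for high against low light (averaged over doses and at each dose) and for 20 against 2 mM nitrate (averaged over light and at each light level); filled points have an edgeR adjusted p under 0.05. Of the values plotted the largest was that of SPL4 between high and low light at 5 mM (2.80), and that of SOC1 at the same dose was -1.46.

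Within single light levels, members were called in high light. Between 20 and 2 mM in high light, where 50.8% of all genes were called (24.7% higher), 3 members were called, all higher at 20 mM. TOE1 had 97.4, 206.2 and 595.0 CPM (lowest, median, highest of 8) at 20 mM and 61.7, 134.1 and 217.2 CPM at 2 mM (log2 change 0.87 ± 0.23, edgeR adjusted p = 0.00132). SPL5 had 3.29, 5.67 and 12.2 CPM at 20 mM and 0.149, 3.41 and 6.54 CPM at 2 mM (log2 change 0.92 ± 0.30, edgeR adjusted p = 0.00849). SPL15 averaged 0.779 ± 0.495 CPM at 20 mM, against 0.279 ± 0.352 CPM at 2 mM (SD, n = 8 each; log2 change 1.49 ± 0.62, edgeR adjusted p = 0.0395). The groups overlapped for all 3. Without the plant with floral markers TOE1 (0.77, edgeR adjusted p = 0.00592) and SPL5 (0.73, adjusted p = 0.0222) still passed and SPL15 did not (1.32, adjusted p = 0.0817), and SPL15 lost its call in 11 of the 16 fits that left out 1 plant. TOE1 stood at 0.55 (adjusted p = 0.0305) without the plant at 595.0 CPM, replicate 8, and at 0.43 (adjusted p = 0.126) without code set 4. Over all alternatives the adjusted p ranged from 0.000378 to 0.916 for TOE1, 0.00153 to 0.864 for SPL5 and 0.00735 to 0.649 for SPL15. By edgeR 0 members were called in low light (8.69% of all genes; 1, SPL3, at an unadjusted p under 0.05, and 0 by the other tools) and 0 in mid light (45.8% of all genes; 2 at an unadjusted p under 0.05), where SPL15 stood at 1.46 ± 0.64 (edgeR adjusted p = 0.052) and SPL4 at -1.02 ± 0.47 (adjusted p = 0.0663). DESeq2 called 1 member and limma-voom 2 in mid light, and the shares of all genes called by these tools are not given here. Without replicate 1 of mid light at 20 mM both passed there, SPL4 at -1.53 (edgeR adjusted p = 0.00697) and SPL15 at 1.66 (adjusted p = 0.0244).

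The difference itself was tested between high and low light, and TOE1 was the member that passed, where 6.03% of all genes did. Its group means in high light were 135.4 ± 48.8, 166.4 ± 47.4, 192.7 ± 26.9 and 248.4 ± 161.1 CPM from 2 to 20 mM, and in low light 211.4 ± 60.3, 180.4 ± 43.3, 169.6 ± 51 and 160.2 ± 26.6 CPM (SD, n = 8 each). The log2 change with nitrate was 0.87 in high light and -0.40 ± 0.23 in low light (edgeR adjusted p = 0.267), a difference of 1.28 ± 0.33 (edgeR adjusted p = 0.01). In high light at 20 mM 1 plant, replicate 8, had 595.0 CPM. The difference ranged from 0.95 to 1.41 when each library was left out in turn, and passed each time, without replicate 8 at 0.95 (adjusted p = 0.0465). Within the 4 code sets, where each group has 2 plants, it was 1.04, 0.33, 1.37 and 1.74, and none of these passed (edgeR adjusted p = 0.548, 0.788, 0.142 and 0.205). Without set 3 or 4 it was 1.24 and 0.94 (adjusted p = 0.123 and 0.127), and over all alternatives its adjusted p ranged from 0.00296 to 0.788. In the joint test of all 6 interaction terms, which 12.7% of all genes passed, TOE1 (edgeR adjusted p = 0.017) and SOC1 (adjusted p = 0.0407) passed and SPL4 did not (adjusted p = 0.0785). TOE1 lost this call in 1 of 96 fits that left out 1 library (0.0817 without high light at 20 mM replicate 8), and SOC1 in 18, with a highest adjusted p of 0.0764 without high light at 20 mM replicate 2.

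Over the 12 group means of log2 CPM, SOC1 and SPL4 had r = -0.82, whereas among libraries of the same group r was 0.31, and -0.12 after code set means were also taken out (96 libraries). TOE1 and SPL3 had 0.71 over group means and 0.28 within groups, TOE1 and SPL5 0.64 and 0.31, and SVP and SPL4 0.67 and 0.40. SOC1 and SPL15 had 0.19 over group means and -0.53 within groups. The points share libraries, depth and scaling, and these values are descriptions. Among 6785 named tested genes that averaged 5 CPM or more, those whose group means followed SPL4 most closely over the 12 groups were CLC-C (r = 0.97), ROL5 (0.96) and HSD3 (0.96), and those that followed SOC1 were INV-E (0.94), AGD6 (0.93) and ICME-LIKE1 (0.93). For TOE1 they were DEAR3 (0.93), MEE25 (0.93) and BLH4 (0.92), for SVP KCO5 (0.96), GID1C (0.95) and COI1 (0.95), and for SPL3 NUDX15 (0.89), COR413IM1 (0.87) and QWRF8 (0.85). SPL5 was followed by AGAL2 (0.98), CEV1 (0.95) and TRM21 (0.93), SPL9 by BNQ2 (0.90), NADK3 (0.88) and SUVH2 (0.87), and SPL15 by FTSZ2-1 (0.97), NOL (0.96) and PnsL2 (0.96). They are the highest of 6785 values over 12 points, so a high r follows in part from the choice. Among libraries of the same group, r of these genes with their member ran from -0.19 (NUDX15 with SPL3) to 0.86 (COI1 with SVP).

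The lists of related genes are given beside the shares of all tested genes called, which were 62.5% with light and 63.3% with nitrate. Their results come from the fit of all libraries without a block and are not given within code sets or under the alternatives. Of 20 genes upstream of FT in the photoperiod pathway, 19 were tested, 8 rose and 4 fell in high against low light (median log2 change 0.05), and 5 rose and 7 fell at 20 against 2 mM (median -0.10), so 12 of 19 were called in each, near the shares over all genes. GI, the clock protein that stabilises FKF1, averaged 101.0 ± 31.9 CPM in high and 58.9 ± 17.7 CPM in low light (SD, n = 32 each; log2 change 0.76 ± 0.10, edgeR adjusted p = 2.8e-10) and fell at 20 mM (-0.71 ± 0.11, adjusted p = 1.2e-07). CDF1, a repressor of CO and FT, averaged 20.8 ± 11.4 CPM in high and 38.6 ± 11.1 CPM in low light (log2 change -1.01 ± 0.13, edgeR adjusted p = 1.27e-10). PIF4, which can activate FT in warmth, stood at -1.0 ± 0.11 in the same comparison (adjusted p = 6.18e-12), and NF-YC4, a subunit of the complex that CO joins, at -1.24 ± 0.16 (adjusted p = 2.86e-10). CO itself had 22, 20 and 42 reads in low, mid and high light and was not tested.

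TSF, the closest relative of FT and a second florigen, had 33 reads in 8 of 32 low-light libraries, 179 in 17 mid-light libraries and 428 in 30 high-light libraries (edgeR adjusted p = 1.53e-10 for high against low light). Its low-light groups at 10 and 20 mM held 0 reads, so no fold is given. TSF had 10 or more reads in 23 of the 96 libraries, so mid and high light, where it was high, carried it past the filter. The filter and the test thus share libraries, and the p-value is a description. FD, the bZIP partner of FT at the apex, averaged 41.5 ± 23.0 CPM in high and 21.6 ± 12.9 CPM in low light (log2 change 0.99 ± 0.18, edgeR adjusted p = 2.62e-06) and fell at 20 against 2 mM (-1.38 ± 0.21, adjusted p = 5e-08). FTIP1, which helps FT leave the companion cell, differed with nitrate (-0.47 ± 0.07, edgeR adjusted p = 4.7e-08), and BFT, a floral repressor of the family, fell in high light (-1.79 ± 0.38, edgeR adjusted p = 4.42e-05). BFT had 10 or more reads in 22 of the 96 libraries, so its change rests on few reads. The list counted 2 higher and 1 lower in high light, and 0 higher and 3 lower at 20 mM, of 5 tested and 9 listed. Of 4 phloem companion cell markers 1 was higher and 1 lower in high light, and their summed level ranged from 461.3 to 836.1 CPM in high and from 431.6 to 991.6 CPM in low light.

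Of the 5 genes of the FLC clade, all tested, MAF2 rose slightly in high light (0.19 ± 0.06, edgeR adjusted p = 0.0092), and FLM (0.08, adjusted p = 0.359), MAF3 (-0.09, adjusted p = 0.158), MAF4 (-0.23, adjusted p = 0.646) and MAF5 (-0.84, adjusted p = 0.303) did not pass. At 20 against 2 mM MAF2 (-0.36 ± 0.07, edgeR adjusted p = 2.04e-05) and FLM (-0.19, adjusted p = 0.0465) fell. Of 14 autonomous and vernalization pathway genes 13 were tested, 6 rose and 3 fell in high light and 2 rose and 5 fell at 20 mM, or 9 and 7 of 13 called where 62.5% and 63.3% of all genes were. Among them VRN1, a DNA-binding protein that keeps FLC silent after cold, averaged 26.8 ± 7.21 CPM in high and 18.5 ± 3.56 CPM in low light (log2 change 0.49 ± 0.08, edgeR adjusted p = 5.69e-07) and fell at 20 mM (-0.83 ± 0.10, adjusted p = 4.46e-11), and SUF4, which activates FLC together with FRIGIDA, rose and fell likewise (0.35 ± 0.05, adjusted p = 4.46e-10, and -0.43, adjusted p = 1.79e-10). VRN2, a Polycomb protein of the same silencing, rose by 0.25 ± 0.06 in high light (edgeR adjusted p = 6.91e-05) and stood at -0.42 at 20 mM, and FCA, an RNA-binding protein that lowers FLC, stood at 0.16 and -0.31 (edgeR adjusted p = 0.00135 and 5.7e-07).

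AP2-type relatives of TOE1 are, like it, targets of miR172, and TEM1 and TEM2 are RAV repressors of FT. Of these 7 genes, all tested, TOE3, AP2 and TEM1 rose and TOE2, SMZ and SNZ fell in high light, 6 called where 62.5% of all genes were. SNZ averaged 45.2 ± 18.1 CPM in high and 88.4 ± 20.1 CPM in low light (log2 change -1.03 ± 0.10, edgeR adjusted p = 1.96e-15), SMZ stood at -1.54 ± 0.25 (adjusted p = 1.03e-07) and AP2 at 0.60 ± 0.11 (adjusted p = 1.52e-06). At 20 mM TOE3, AP2 and TEM1 fell and SNZ rose (0.69 ± 0.11, edgeR adjusted p = 1.55e-07), 4 called where 63.3% of all genes were. Of 13 precursor genes of miR156 and miR172 only MIR172B was tested, at 0.594 ± 0.373 CPM in high and 0.287 ± 0.182 CPM in low light (log2 change 1.02 ± 0.24, edgeR adjusted p = 0.000221). MIR172B had 10 or more reads in 20 of the 96 libraries, so its change rests on few reads. MIR156D, read from polyadenylated RNA, had 116, 84 and 126 reads in low, mid and high light, which says nothing of the mature microRNA.

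Of 12 other SPL genes listed, 9 were tested, 6 rose and 1 fell in high light (median log2 change 0.33, against 0.04 over all genes) and 0 rose and 5 fell at 20 mM (median -0.38, against -0.06), or 7 and 5 of 9 called where 62.5% and 63.3% of all genes were. SPL2 averaged 33.1 ± 14.2 CPM in high and 18.5 ± 6.82 CPM in low light (log2 change 0.82 ± 0.13, edgeR adjusted p = 2.01e-07), and SPL10 stood at 0.64 ± 0.14 (adjusted p = 9.43e-05); both hold a miR156 site. SPL14, a large SPL gene with no such site, was at 0.42 ± 0.06 (adjusted p = 2.47e-08). SPL12 was the other SPL gene that fell in high light (-0.17 ± 0.06, edgeR adjusted p = 0.00924), and it also fell at 20 mM (-0.38 ± 0.07, adjusted p = 1.43e-06). Of the 4 tested other SPL genes with a miR156 site 3 rose in high light, and of the 5 without 3 rose and 1 fell. Among MADS-box partners and floral identity genes 5 of 10 were tested and all 5, AGL24, FUL, AGL42, AGL18 and AGL19, rose in high light, where 33.8% of all tested genes rose, while LFY, AP1 and CAL were too low to test. AGL42, a close relative of SOC1, averaged 30.4 ± 14 CPM in high and 5.10 ± 3.31 CPM in low light (log2 change 2.56 ± 0.25, edgeR adjusted p = 9.92e-15), where SOC1 fell. FUL, which acts with SOC1 at the apex, averaged 9.25 ± 3.90 CPM in high and 3.55 ± 1.70 CPM in low light (1.32 ± 0.14, edgeR adjusted p = 1.08e-13). The plant with floral markers had the highest FUL of all 96 libraries (17.7 CPM), and FUL is not given without it.

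**Figure D5:**
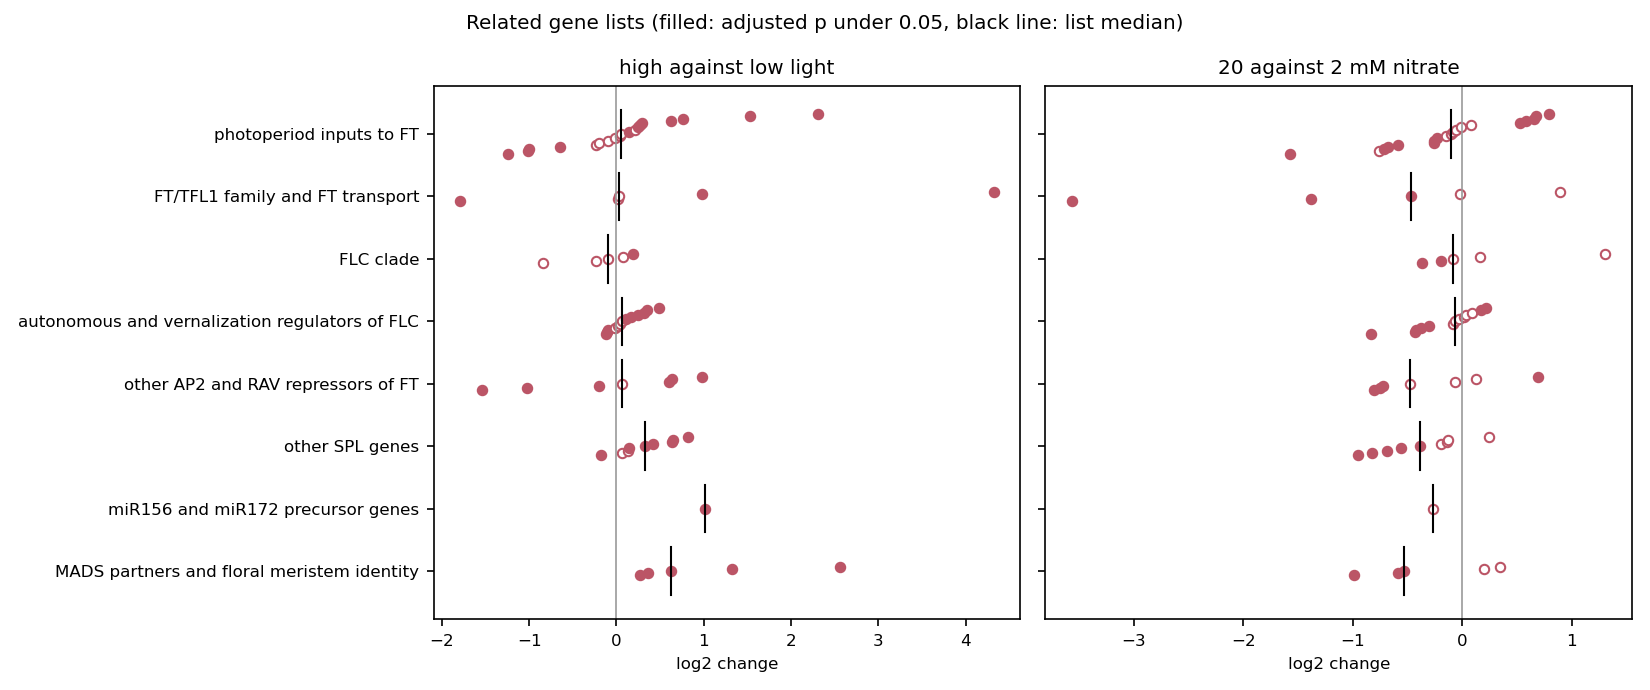
Fitted log2 change of each tested gene of 8 related lists (points), on the left between high and low light and on the right between 20 and 2 mM nitrate, with the list median as a line. The medians of the other SPL genes were 0.33 and -0.38 and those of the MADS-box list 0.63 and -0.53; the points of TSF rest partly on groups with 0 reads and are not bounds.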

How the data were processed

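Leaf polyadenylated RNA of 96 plants was sequenced after preparation with a stranded mRNA kit, per the labels' protocols. The authors deposited 1 table of raw read counts per gene, with 1 column per library. The submitters' processing notes name STAR 2.5.3a, featureCounts and TAIR10, with counting options not given in the sources used here. Columns were matched to samples by the library code in the labels, and groups, replicate numbers and doses come from the titles. The libraries held 9461056 to 18125373 counts, so 1 CPM stands for 9.46 to 18.1 reads before TMM scaling, and no column was without a sample (0).

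Counts were fitted with edgeR 4.0.16 (limma 3.58.1, R 4.3.3): filterByExpr, TMM factors, a robust quasi-likelihood fit with 1 mean for each of 12 groups (84 residual degrees of freedom; common biological coefficient of variation 0.424) and Benjamini-Hochberg adjustment over the 19498 tested genes, called under 0.05. The fit was checked on simulated counts. FT and FLC, which did not pass the filter, were compared by permutation (100000 draws), a test added after the counts were seen. Alternatives were RLE factors, no filter, DESeq2 1.42.0, limma-voom, the replicate number or code set as a block, each code set alone or left out, and each library left out. Labels do not say that plants of different groups with the same replicate number belong together. Of 336 within-group pairs of libraries none agreed within sampling noise (lowest chi-square per degree of freedom 6.46). Plants are the replicates, so p-values rest on the spread between plants of a group. In the fit without a block that spread includes differences between code sets. The labels do not say whether these sets are separate experiments.

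The members and the related gene lists were chosen with earlier results of these data known. The text names all members, up to 4 genes of each list by smallest p for high against low light or 20 against 2 mM nitrate, every gene of a list of 5, and the 3 genes most like each member; CO, FKF1, MIR156D, AGL24, LFY, AP1, CAL, TOE2, TEM1, TEM2 and SEP1 fall outside that rule and were named after their values were seen, and marker genes are given as lists. Exon lengths, sites and microRNAs come from RefSeq TAIR10.1, in which 32548 of the 32833 loci were found. Sites of microRNAs were searched without gaps on the sense strand of annotated transcripts, the longest of each gene for the share of all genes.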

Additional observations from a re-analysis of the deposited data

Results flagged for a closer look

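Among the 96 combinations of a tested member and a group, 16 held a plant whose distance to its nearest neighbour exceeded the 95% critical value of Dixon's test for 8 plants. For independent normal values chance alone gives about 1 in 20. The CPM were not transformed, the members share plants and each group spans 4 code sets, so 16 of 96 cannot be set against that share. For SOC1 these were replicate 1 in low light at 2 mM (291.9 CPM) and at 5 mM (387.0 CPM), and replicate 2 in high light at 2 mM (165.1 CPM, the plant with floral markers) and at 20 mM (166.1 CPM), all in code set 1. SVP was high in replicate 2 of low light at 5 mM (198.3 CPM). TOE1 was high in replicate 8 of mid light at 5 mM (420.7 CPM) and in replicate 6 of high light at 5 mM (271.3 CPM) and 10 mM (250.0 CPM), and SPL3 in replicate 8 of mid light at 2 mM (43.6 CPM). SPL4 was high in replicate 2 of low light at 5 mM (4.41 CPM) and 20 mM (8.43 CPM) and in replicate 1 of mid light at 20 mM (15.1 CPM), again in code set 1. SPL5 was low in replicate 2 of mid light at 2 mM (3.02 CPM). SPL15 was high in replicate 7 of mid light at 2 mM (0.771 CPM), replicate 8 of mid light at 20 mM (2.08 CPM) and replicate 8 of high light at 10 mM (1.49 CPM).

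The nitrate response of TOE1 differed between high and low light (edgeR adjusted p = 0.01), and the joint test of the 6 interaction terms passed for TOE1 (edgeR adjusted p = 0.017) and SOC1 (edgeR adjusted p = 0.0407).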

How the results depend on the processing

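The values below count the members called. Shares of all genes are given above for the filtered edgeR fit of all libraries without a block only. Counts under the alternatives have no such share beside them and are not read as results about the members. Counts above 0 that stayed within 1.5 times the one reported are left out except for high against low light and 20 against 2 mM averaged over the other factor. For high against low light (2 called) the count was 4 with no filter, where FT and FLC enter the fit, 3 with the replicate block, the code set block, limma-voom or DESeq2, and 1 within code set 1. For mid against low light (2) it was 1 without set 1 and 0 within each of sets 1, 2, 3 and 4. For high against mid light (0) it was 1 with no filter, 3 with a replicate block, 3 with a code set block, 2 without set 1, 1 within set 2 and 1 with limma-voom. For 20 against 2 mM (2) it was 4 with the replicate block, 5 with the code set block, 3 without set 1 or 2, 3 within set 1 or 3, 3 with limma-voom, 0 without set 3, 1 without set 4 and 0 within set 4. For 5 against 2 mM (1) it was 0 with no filter, 2 without set 1, and 0 without sets 2, 3 or 4 or within sets 1, 3 or 4. For 10 against 5 mM (0) it was 2 without set 1.

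For high against low light at 2 mM (3) the count was 5 with no filter, 1 without set 2, 1 within set 2 and 0 within sets 1, 3 and 4. At 5 mM (2) it was 1 within set 1. At 10 mM (1) it was 2 with no filter, 2 with either block, 2 without set 1, 0 within sets 1 and 4, 2 within set 3 and 3 with limma-voom. At 20 mM (0) it was 1 without set 1. For 20 against 2 mM in mid light (0) it was 2 with either block, 3 without set 1, 3 within set 2, 2 with limma-voom and 1 with DESeq2. In high light (3) it was 1 within set 1, 0 within set 2, 1 without set 4 and 1 within set 4. For the difference between high and low light in the nitrate change (1) it was 2 without set 1 and 0 within any set or without set 3 or 4. For the 6 interaction terms together (2) it was 1 with no filter, 4 with either block and 0 within any set or without set 2, 3 or 4. SPL4 changed sign within set 1, to -0.037 (high against low light) and to 0.37 (20 against 2 mM). The cause of these changes was not tested.

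With each library left out in turn, 2 members were called for high against low light and 2 for mid against low in every fit. The count ran from 0 to 1 for high against mid, 2 to 3 for 20 against 2 mM, 0 to 1 for 5 against 2 mM, and was 0 for 10 against 5 and for 20 against 10 mM. High against low light gave 2 to 3 at 2 mM, 2 at 5 mM, 1 to 2 at 10 mM and 0 to 1 at 20 mM, and at 2 mM SOC1 gained its call in the fit without replicate 2 of high light. For 20 against 2 mM it was 0 in low light, 0 to 2 in mid light and 2 to 3 in high light. The nitrate difference between light levels gave 1, and the 6 terms together 0 to 3.

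Plants with the same replicate number were not treated as paired across groups: of 528 such pairs 355 had deviations correlated over 0.1 (median r 0.203), and 29 of 96 libraries correlated best with their own number. Depth limits FT, FLC and SPL15, and within a code set each group has 2 plants. SPL15 could not be fitted within set 1.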
